A study of Mus musculus with 18 samples.

Results

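Expression of 10 genes of the Notch signalling pathway is described here, namely Notch1, Notch2, Notch3, Notch4, Jag1, Jag2, Hes1, Rbpj, Dtx1 and Dtx4. They were chosen by name among 44349 genes in the deposited expression table. All 10 were found in it. RNA-seq libraries had been made from LT-HSC (long-term haematopoietic stem cells, the marrow cells that can rebuild all blood lineages) from wild-type mice and from mice without DERARE, an element of the Hoxb cluster that responds to retinoic acid. The libraries number 18, in 6 groups of 3. WT and Wnt5a are from wild-type mice, the second with a Wnt5a label. KO Ctrl and KO Wnt5a are from knockout mice, and the labels call the second a rescue by Wnt5a, a ligand of noncanonical Wnt signalling. WT Reserve and KO Reserve are cells with a reserve label from wild-type and knockout mice.

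Some features of the groups are not given in the labels. They do not say how Wnt5a was given, at which dose or for how long, nor the age, sex or number of mice. The genotype field of KO Ctrl adds the words wt control, and that of KO Reserve reads wild type reserve ko, so the titles were used. The sort gate is stated for the series as a whole (lineage-negative, Sca-1-positive, c-Kit-positive, CD34-negative, Flk2-negative, CD49b-low), without saying how reserve cells were separated. The column headers of the 6 reserve libraries have another prefix from those of the other 12, so the reserve label and whatever else differed between these sets cannot be told apart. No gene of the table checks the deletion, since DERARE is not a gene. Nothing says that libraries of a group came from separate animals, and the tests below measure the spread between these libraries.

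Notch receptors are single-pass membrane proteins that are cut after they bind a ligand on a neighbouring cell. The freed intracellular domain enters the nucleus and joins RBPJ, a DNA-binding protein that represses its target genes without it and activates them with it, together with Mastermind-like coactivators. In blood, Notch signalling is known above all for directing progenitors to the T-cell fate and for the emergence of the first stem cells in the embryo.

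RBPJ binds the letters TGGGAA, and the promoter sequences below are shown because they hold them. Of the 10 genes, 8 had an entry in the RefSeq promoter table (GRCm38.p6), and the 250 bases before the start held TGGGAA on either strand in 1 of them, Rbpj. Hes1 and Dtx4 were not among the entries. Among all 32851 windows of that length 21.6% held the motif and 2.77% held it at least 2 times, while the longer form GTGGGAA was present in 5.42%. The windows of Hes5 and Lfng, other genes of the pathway that are described below, are set beside it and were picked after the search. Capitals mark TGGGAA or its reverse complement TTCCCA, all are given 5′ to 3′ on the gene's strand, and stretches that belong to an annotated exon of the gene are left out.
Rbpj, chr5:53590096-53590213, plus strand: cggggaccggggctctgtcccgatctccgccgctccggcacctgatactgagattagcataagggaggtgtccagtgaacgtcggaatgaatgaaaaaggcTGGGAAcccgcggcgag
Hes5, chr4:154960673-154960922, plus strand: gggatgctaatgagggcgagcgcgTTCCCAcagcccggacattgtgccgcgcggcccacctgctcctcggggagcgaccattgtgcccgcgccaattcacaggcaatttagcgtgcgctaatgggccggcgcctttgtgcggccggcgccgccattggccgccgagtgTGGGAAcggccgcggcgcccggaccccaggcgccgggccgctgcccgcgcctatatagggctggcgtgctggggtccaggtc
Lfng, chr5:140607091-140607319, plus strand: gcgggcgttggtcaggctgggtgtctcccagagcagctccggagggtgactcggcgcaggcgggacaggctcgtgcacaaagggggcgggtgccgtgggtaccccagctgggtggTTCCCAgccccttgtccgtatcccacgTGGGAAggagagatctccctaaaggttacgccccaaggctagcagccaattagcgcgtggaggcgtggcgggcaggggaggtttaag
In Hes5 the motif begins at -226 and -82 from the start, and both copies read GTGGGAA. In Lfng it begins at -135 and -108, and 1 copy reads GTGGGAA. In Rbpj it begins at -149, and a second copy at -65 lies in an exon of the gene and is not printed. A match is a description of the letters and not evidence of binding.

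The reserve libraries stood apart from the rest across the transcriptome. The first principal component took 53.3% of the variance and placed them at -109.1 to -82.03, against 40.07 to 54.01 for the other 12. Summed FPKM (fragment counts divided by gene length and library depth) of 9 granulocyte markers was 2500 to 10400 in the reserve libraries and at most 179 elsewhere, and that of 7 B-lymphoid markers 1550 to 2390 and at most 71.7. The 9 erythroid markers summed to 5110 to 9180 in reserve libraries and at most 670 in the others, 8 T and NK markers to 241 to 777 and at most 86.0, and 5 megakaryocyte markers to at most 178 against at least 7240. The 12 LT-HSC markers summed to 440 to 536 in the 12 libraries, 272 to 389 in WT Reserve and 82.1 to 86.8 in KO Reserve. Taken singly, 6 of the 12 rose and 5 fell in WT Reserve against WT by the test described below. In KO Reserve 0 rose and 11 fell, against KO Ctrl and also against WT Reserve. Of the genes that the gate should exclude, Cd34 was at 357.8 ± 15.2 FPKM in WT (SD, n = 3) and 402.3 ± 33.2 in KO Ctrl, against 67.8 ± 3.36 in WT Reserve and 10.7 ± 3.40, the lowest, in KO Reserve. Flt3, which encodes Flk2, went the other way, from 0.516 ± 0.240 in WT to 15.5 ± 3.15 in WT Reserve and from 1.39 ± 0.514 in KO Ctrl to 3.93 ± 0.0873 in KO Reserve. The part of these cell type differences in the values below was not tested, and in bulk libraries fewer cells of a type and less RNA per cell cannot be told apart. Sex is not in the labels, and Xist, named after its values were seen, differed between groups. The mean of Xist was 2.56 FPKM in WT, 2.485 in Wnt5a, 4.96 in KO Ctrl and in KO Wnt5a, 0.334 in WT Reserve and 7.40 in KO Reserve. Whether this bears on the values below was not tested. Depth inferred from the smallest values was 20400000 to 40700000 fragments per library.

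Hes1 and Rbpj were the most abundant of the 10 genes, and Jag2, Dtx4, Notch1 and Notch2 were at low levels. Notch3, Notch4 and Jag1 were at most at 0.471 FPKM in any library. Dtx1 was at 0.072 to 1.22 FPKM without the reserve label, and near the limit of detection with it. With the reserve label, Jag2, Rbpj, Dtx4 and Hes1 fell in both genotypes, the first 3 to between 0.0185 and 0.513 of the mean FPKM of their counterparts. Of all tested genes 27.9% fell and 30.8% rose with the label in wild-type cells, and 40.4% and 24.8% in knockout cells. The wild-type split, 3990 lower and 4400 higher, turned to 4420 and 3937 with quantile normalization. Loss of DERARE went with lower Hes1 in reserve cells, and with higher Hes1 among the Wnt5a groups. No member passed the test for the knockout without reserve label or Wnt5a, nor for Wnt5a in either genotype.

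**Figure D1:**
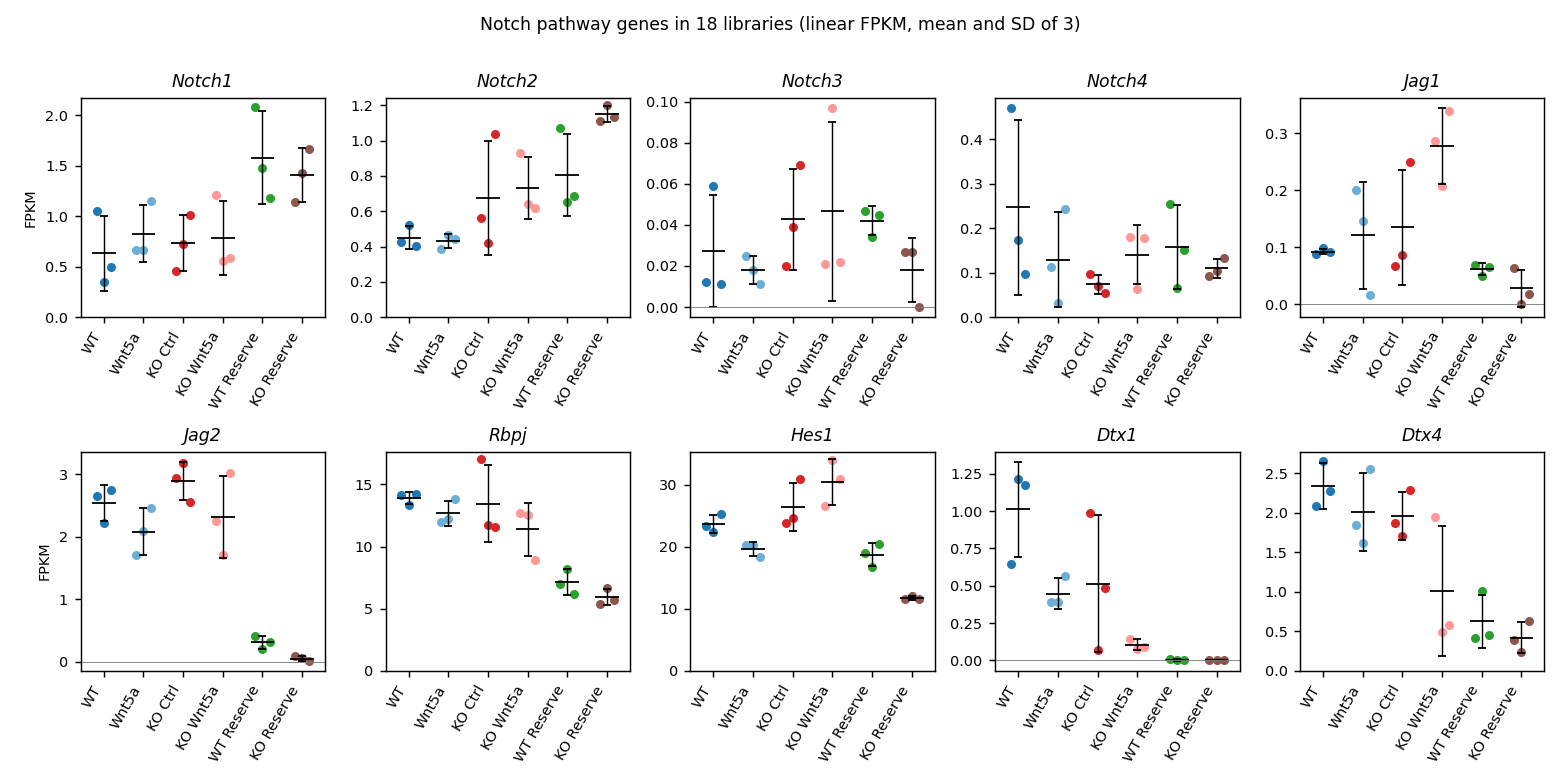
FPKM of the 10 genes in each of the 18 libraries (points) by group, with the mean and SD (bars, n = 3); each panel has its own linear axis from 0. Jag2 lies at 1.71 to 3.18 in the 12 libraries without the reserve label and at 0.017 to 0.421 in the 6 with it, and Hes1 is lowest in the 3 KO Reserve libraries, at 11.5 to 12.1.

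Tests were made on log2(FPKM + 1), which understates changes of genes near or below 1 FPKM, with 1 limma model over all libraries and Benjamini-Hochberg adjustment over the 14285 genes that reached 1 FPKM in at least 3 of 18 libraries. Of the 10 members 6 entered (Notch1, Notch2, Jag2, Hes1, Rbpj and Dtx4). Jag2 entered through the 12 libraries without the reserve label alone, and Notch2 through 4 reserve libraries and 1 of KO Ctrl. Dtx4 reached 1 FPKM in 11 libraries, of which WT Reserve 2 was the only one with the reserve label. A gene that enters through its high group had to differ, so the number of members called supports nothing by itself.

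Notch1 (ENSMUSG00000026923, GRCm38 chromosome 2, 26457903 to 26516663, minus strand) encodes the receptor best known for T-cell commitment. Its level was 1.05, 0.345 and 0.500 FPKM in WT, 0.664, 0.660 and 1.15 in Wnt5a, 0.462, 0.723 and 1.02 in KO Ctrl, and 1.21, 0.558 and 0.590 in KO Wnt5a. In WT Reserve it was 2.08, 1.48 and 1.18 FPKM, and in KO Reserve 1.14, 1.42 and 1.66. Both reserve groups lay above their own counterparts without overlap, while the other 4 groups overlapped each other. Notch1 rose in WT Reserve against WT by 0.67 on the log2 scale (SE 0.21, limma adjusted p = 0.0107). The call was lost without WT 2 (0.54, adjusted p = 0.0576), without WT Reserve 1 (0.53, 0.0553) and with quantile normalization (0.43, 0.0845). In KO Reserve against KO Ctrl the difference was 0.48 (SE 0.21, adjusted p = 0.0516). That difference passed the threshold without KO Ctrl 3 (0.60, 0.0342), without KO Reserve 1 (0.56, 0.0464), with median-ratio scaling (0.66, 0.0105), with quantile normalization (0.53, 0.0330) and without trend and robust moderation (0.48, 0.0425). The kit keeps no strand, and reads of the opposite-strand transcript 0610009E02Rik, at 0.402 to 0.864 FPKM in the group means, cannot be told apart from Notch1 where the genes overlap.

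Notch2 (ENSMUSG00000027878, chromosome 3, 98013527 to 98150361, plus strand) encodes a receptor with known roles in marginal zone B cells and in stem cell expansion after injury. It was at 0.424, 0.523 and 0.403 FPKM in WT, 0.386, 0.468 and 0.442 in Wnt5a, 0.562, 0.422 and 1.04 in KO Ctrl, and 0.931, 0.640 and 0.620 in KO Wnt5a. The reserve libraries gave 1.07, 0.651 and 0.688 FPKM in WT Reserve and 1.11, 1.20 and 1.13 in KO Reserve. All KO Reserve values lay above all WT Reserve values, and each reserve group lay above its counterpart without overlap. Notch2 would not have passed the filter without the reserve libraries, where it was high, so its p-values are no independent support. Notch2 rose in KO Reserve against KO Ctrl by 0.38 (SE 0.16, limma adjusted p = 0.0438). That call was lost with only the 6 libraries compared (adjusted p = 0.124), with a pseudocount of 0.1 (0.77, adjusted p = 0.0592) and when any of 5 of the 6 libraries was left out. The adjusted p was 0.112 without KO Ctrl 1, 0.180 without KO Ctrl 2, 0.0706 without KO Reserve 1, 0.0985 without KO Reserve 2 and 0.0775 without KO Reserve 3. Without KO Ctrl 3 the call stayed, at 0.53 (adjusted p = 0.00868). KO Reserve exceeded WT Reserve by 0.26 (SE 0.16, adjusted p = 0.200), which passed with quantile normalization (0.52, 0.00886) and with median-ratio scaling (0.40, 0.0465). The unnamed model Gm42820 lies on the same strand inside Notch2 and was at 0.163 FPKM in WT, 0.443 in WT Reserve and 1.56 in KO Reserve, so reads may have been split between them.

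Notch3 and Notch4 encode the other receptors, Notch3 typical of vascular smooth muscle and Notch4 of endothelium, and both were below the filter. Notch3 (chromosome 17, 32120820 to 32166852, minus strand) ranged from 0.011 to 0.097 FPKM over the 12 libraries and from 0 to 0.047 in the reserve libraries. In 2 libraries it was at or under the level of 3 fragments (0.00917 to 0.0183 FPKM by depth). Notch4 (chromosome 17, 34564268 to 34588503, plus strand) was at 0.471, 0.174 and 0.098 FPKM in WT and at 0.096, 0.070 and 0.055 in KO Ctrl. These 2 groups did not overlap. In a fit without the filter, the Notch4 difference was -0.21 (limma adjusted p = 0.501).

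Jag2 (ENSMUSG00000002799, chromosome 12, 112907819 to 112929776, minus strand) encodes Jagged 2, a membrane ligand of the receptors. Its FPKM was 2.66, 2.22 and 2.75 in WT, 1.71, 2.09 and 2.46 in Wnt5a, 2.94, 3.18 and 2.57 in KO Ctrl, and 2.25, 1.71 and 3.02 in KO Wnt5a. The reserve libraries gave 0.421, 0.199 and 0.313 FPKM for the wild type, and 0.089, 0.055 and 0.017 for the knockout. Among the groups without the label all pairs overlapped but Wnt5a and KO Ctrl, of which Wnt5a was lower. All 4 lay above WT Reserve, and all WT Reserve values lay above all KO Reserve values. The mean of WT Reserve was 0.122 of that of WT, and the mean of KO Reserve 0.0185 of that of KO Ctrl. Jag2 fell by 1.43 on the log2(FPKM + 1) scale in WT Reserve (SE 0.16, limma adjusted p = 7.39e-07) and by 1.88 in KO Reserve (SE 0.16, adjusted p = 1.87e-08). With a pseudocount of 0.1 these differences were -2.71 and -4.31. Both were called in 13 of 13 alternatives. Since Jag2 entered through its high groups alone, these p-values are no independent support, and the values per library above carry the description.

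Between the reserve groups, the Jag2 mean in KO Reserve was 0.173 of that in WT Reserve. The difference was -0.31 on the log2(FPKM + 1) scale (95% interval -0.65 to 0.02, limma adjusted p = 0.125). With a pseudocount of 0.1 it was -1.41 and passed the test (adjusted p = 0.00121). The lowest KO Reserve value rests on about 2 fragments and is under the level of 3 fragments for that gene, so the size of the change at this depth is uncertain.

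Jag1 (chromosome 2, 137081456 to 137116644, minus strand), the ligand that marrow endothelial and stromal cells are known to present, was below the filter. It was at 0.287, 0.207 and 0.340 FPKM in KO Wnt5a and at 0.200, 0.146 and 0.016 in Wnt5a. KO Wnt5a lay above Wnt5a without overlap, but the difference without the filter, 0.19, did not pass (limma adjusted p = 0.267). In the 6 reserve libraries Jag1 was at 0 to 0.069 FPKM. Stromal markers summed to at most 2.23 FPKM in any library. Endothelial markers summed to 49.6 to 55.8 FPKM in the 12 other libraries, 21.9 to 32.2 in WT Reserve and 6.40 to 7.65 in KO Reserve, and their part in the Jag1 values was not tested. In WT 4 of the 6 listed endothelial markers had a mean of at least 1 FPKM. Cdh5 on that list, named after its values were seen, had a mean of at most 0.084 FPKM in any group. Of the Delta-like ligands, Dll1 and Dll4 were below the filter too. Dll1, named after its values were seen, was at 0.684, 0.901 and 1.05 FPKM in KO Wnt5a and at no more than 0.691 in any other library. Dll4 was at most at 0.243 FPKM.

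Rbpj (ENSMUSG00000039191, chromosome 5, 53466152 to 53657362, plus strand) encodes the DNA-binding partner of the cleaved receptor. It was at 14.2, 13.4 and 14.2 FPKM in WT, 12.01, 12.2 and 13.9 in Wnt5a, 17.1, 11.8 and 11.5 in KO Ctrl, and 12.7, 12.5 and 8.89 in KO Wnt5a. In WT Reserve it was 6.99, 8.23 and 6.20 FPKM, and in KO Reserve 5.38, 6.66 and 5.73. Every reserve library lay below every other library, and the 2 reserve groups overlapped. Rbpj fell by 0.88 in WT Reserve against WT (SE 0.16, limma adjusted p = 0.000164), with a mean of 0.513 of the WT level. In KO Reserve against KO Ctrl it fell by 1.05 (SE 0.16, adjusted p = 2.27e-05), to 0.440 of the mean. Both calls were kept in 13 of 13 alternatives. Among the 4 groups without the reserve label no Rbpj difference passed, and the widest was -0.22 in KO Wnt5a against KO Ctrl (95% interval -0.56 to 0.12).

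Hes1 (ENSMUSG00000022528, chromosome 16, 30064384 to 30067796, plus strand) encodes a basic helix-loop-helix repressor and is the classic direct target of Notch, though other pathways also control it. Its FPKM was 23.4, 22.4 and 25.2 in WT and 18.9, 16.7 and 20.5 in WT Reserve. KO Ctrl gave 23.8, 24.6 and 30.9, and KO Reserve 11.5, 12.1 and 11.6. The 3 KO Reserve libraries were the lowest of all 18, and lay below WT Reserve without overlap. Their mean, 11.7 ± 0.309 (SD, n = 3), was 0.626 of that of WT Reserve, 18.7 ± 1.90. Hes1 fell by 0.63 in KO Reserve against WT Reserve (SE 0.12, 95% interval -0.88 to -0.38, limma adjusted p = 0.000527). It was the only one of the 6 tested members called in that comparison, where 41.3% of all tested genes were called, 29.3% lower and 12% higher. In 13 of 13 alternatives the call held, between -0.70 and -0.34.

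The scaling bears on how that difference reads. The median over all tested genes was -0.17 in KO Reserve against WT Reserve and 0.03 after quantile normalization, which also turned the split of called genes from 1708 higher and 4191 lower to 3154 higher and 2764 lower. Median-ratio scaling gave 3166 higher and 2800 lower. Hes1 was lower under both scalings. Rbpj and Dtx4 did not pass in this comparison, at -0.23 and -0.19, and their sign changed with quantile normalization (0.03 and 0.06).

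Without the reserve label, Hes1 in KO Ctrl exceeded WT by 0.15 (95% interval -0.11 to 0.40, limma adjusted p = 0.583). None of the 6 tested members was called in that comparison, against 2.65% of all tested genes, 1.53% higher and 1.12% lower. At an unadjusted p below 0.05 there were 0 of the 6, against 17.6% of all tested genes. The genotype difference of Hes1 in reserve cells minus that in the other cells was -0.77 (SE 0.17, 95% interval -1.13 to -0.42, adjusted p = 0.00245). Hes1 was the only member called by this interaction, which called 30.9% of the tested genes, 22.9% lower and 8.03% higher. It was kept in 18 of 19 alternatives and lost with quantile normalization (-0.42, adjusted p = 0.0566). The 2 genotype contrasts in it share no libraries. However, WT and KO Ctrl also differ from the reserve groups in all the marker sums given above except the stromal ones, which overlapped.

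Hes1 also fell with the reserve label in each genotype. In WT Reserve against WT it fell by 0.33 (SE 0.12, limma adjusted p = 0.0268), to 0.791 of the mean FPKM. That call was lost without WT 1 (adjusted p = 0.0551), without WT 3 (0.0966), without WT Reserve 2 (0.0989) and with only the 6 libraries compared (0.0545). In KO Reserve against KO Ctrl it fell by 1.10 (SE 0.12, adjusted p = 4.54e-07), to 0.444 of the mean, in 13 of 13 alternatives. Of all tested genes 58.7% were called in either direction in WT Reserve against WT and 65.3% in KO Reserve against KO Ctrl, beside 5 of 6 members in each. Whether the members differ in this from other genes was not tested.

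Wnt5a and genotype were then compared for Hes1. Its FPKM was 20.3, 20.3 and 18.4 in Wnt5a and 26.5, 33.9 and 31.0 in KO Wnt5a. All Wnt5a values lay below all WT values, and all KO Wnt5a values lay above all Wnt5a values. KO Wnt5a and KO Ctrl overlapped. Hes1 rose in KO Wnt5a against Wnt5a by 0.60 (SE 0.12, limma adjusted p = 0.00992), with a ratio of means of 1.55. It was the only member called there, where 3.23% of the tested genes were called, 1.41% higher and 1.82% lower. The call was lost without Wnt5a 3 (0.56, adjusted p = 0.0642) and without KO Wnt5a 2 (0.52, adjusted p = 0.0598). Mast cell and basophil markers summed to 70.4 to 156 FPKM in Wnt5a and 4.81 to 7.01 in KO Wnt5a. Granulocyte (127 to 179, 26.9 to 33.4) and megakaryocyte sums (12300 to 27400, 7240 to 10400) were also lower in KO Wnt5a. Erythroid (463 to 572, 626 to 670) and stromal sums (0.452 to 0.824, 0.876 to 1.48) were higher. Their part in the Hes1 values was not tested.

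Within a genotype, no member passed for Wnt5a. Hes1 in Wnt5a against WT differed by -0.26 (SE 0.12, limma adjusted p = 0.626), where 0.049% of all tested genes were called, 0.042% higher and 0.007% lower. In KO Wnt5a against KO Ctrl it differed by 0.20 (95% interval -0.05 to 0.45, adjusted p = 0.598), with 1.02% of genes called, 0.315% higher and 0.707% lower. The difference between these 2 responses was 0.46 (SE 0.17, limma adjusted p = 0.690), and 0.07% of genes were called for it, 0.021% higher and 0.049% lower. In each of these 3 comparisons 1 member had an unadjusted p below 0.05, Hes1 in the first and last and Dtx4 in KO Wnt5a against KO Ctrl. At that p stood 7.88%, 10.7% and 6.04% of all tested genes, in the order given. The comparisons share WT, Wnt5a, KO Ctrl or KO Wnt5a libraries and are not independent of each other.

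**Figure D2:**
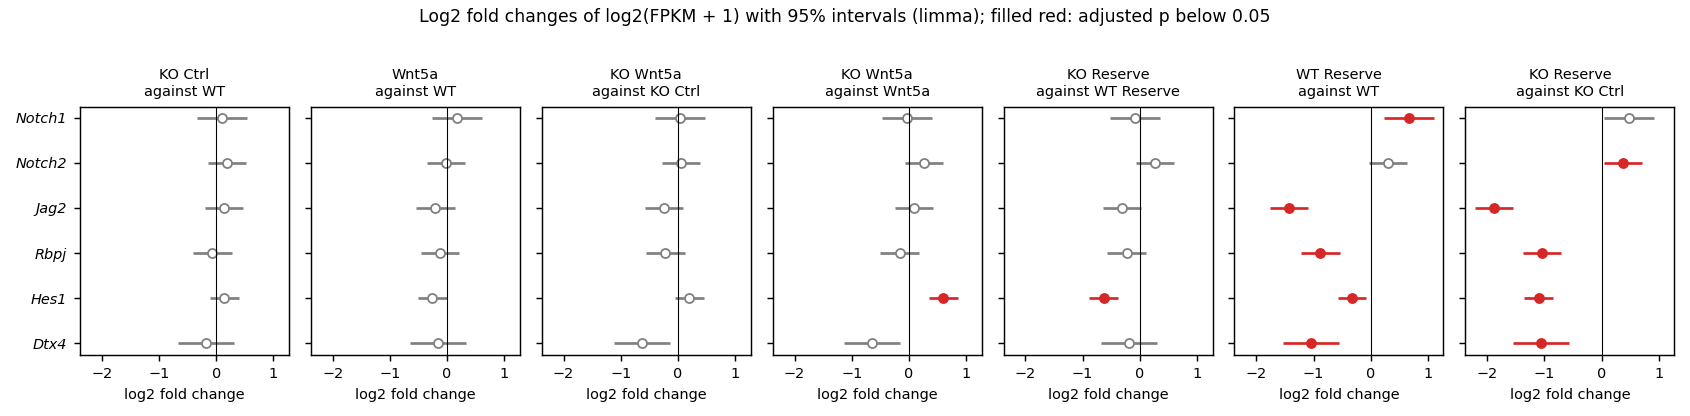
Differences on the log2(FPKM + 1) scale (points) with 95% intervals (bars) for the 6 tested members in each comparison; filled points passed the limma test at an adjusted p below 0.05. Hes1 is the filled point in KO Reserve against WT Reserve (-0.63) and in KO Wnt5a against Wnt5a (0.60), while Jag2, Rbpj and Dtx4 lie below 0 in both reserve contrasts within a genotype.

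Dtx1 and Dtx4 encode Deltex proteins, E3 ubiquitin ligases that bind the intracellular part of Notch and tune its trafficking, and Dtx1 is itself a known Notch target in lymphocytes. Dtx4 (ENSMUSG00000039982, chromosome 19, 12466338 to 12501454, minus strand) was at 2.08, 2.65 and 2.28 FPKM in WT, 1.85, 1.61 and 2.56 in Wnt5a, 1.88, 1.70 and 2.29 in KO Ctrl, and 1.95, 0.493 and 0.582 in KO Wnt5a. In WT Reserve it was 0.412, 1.01 and 0.455 FPKM, and in KO Reserve 0.387, 0.240 and 0.629. Each reserve group lay below its counterpart without overlap, and 2 of the 3 KO Wnt5a libraries lay in the range of the reserve groups. Dtx4 fell by 1.05 in WT Reserve against WT (SE 0.23, limma adjusted p = 0.000908) and by 1.06 in KO Reserve against KO Ctrl (SE 0.23, adjusted p = 0.000689). With a pseudocount of 0.1 these differences were -1.83 and -2.05, and both were called in 13 of 13 alternatives. Of the reserve libraries only WT Reserve 2 reached 1 FPKM, so Dtx4 also entered through its high groups. These p-values are no independent support. In KO Wnt5a against KO Ctrl the Dtx4 difference was -0.62 (SE 0.23, adjusted p = 0.294), and it passed without KO Wnt5a 1 (-0.94, adjusted p = 0.0343). Against Wnt5a it was -0.64 (adjusted p = 0.156), and again passed without KO Wnt5a 1 (-0.96, adjusted p = 0.0188).

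Dtx1 (chromosome 5, 120680202 to 120711927, minus strand) reached 1 FPKM in 2 libraries only and was not in the main test. It was at 0.647, 1.22 and 1.18 FPKM in WT, 0.391, 0.388 and 0.565 in Wnt5a, 0.986, 0.072 and 0.482 in KO Ctrl, and 0.146, 0.078 and 0.090 in KO Wnt5a. It was listed at 0 in 5 of the 6 reserve libraries and at 0.012 in WT Reserve 1, all under the level of 3 fragments (0.0182 to 0.0364 FPKM by depth). Wnt5a lay below WT and KO Wnt5a below Wnt5a, each without overlap. In the fit without the filter, Dtx1 fell by 0.99 in WT Reserve against WT (SE 0.17, limma adjusted p = 0.000418) and by 0.55 in KO Reserve against KO Ctrl (adjusted p = 0.0214). The other Dtx1 differences in that fit did not pass, at -0.44 for KO Ctrl against WT (adjusted p = 0.324), -0.47 for Wnt5a against WT (0.733) and -0.39 between the Wnt5a groups, knockout against wild type (0.451).

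The order of the group means differed between members. Hes1 ran from KO Wnt5a (30.5 FPKM) through KO Ctrl (26.4), WT (23.7), Wnt5a (19.7) and WT Reserve (18.7) to KO Reserve (11.7). In that order WT and Wnt5a did not overlap, nor did WT Reserve and KO Reserve, and the other neighbours overlapped. For Rbpj and Dtx4 the order began with WT (13.9 and 2.34) and ended with KO Reserve (5.92 and 0.419). Jag2 was highest in KO Ctrl (2.90) and Dtx1 in WT (1.01). Notch1 had its highest mean in WT Reserve (1.58) and its lowest in WT (0.633), and Notch2 its highest in KO Reserve (1.15).

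Genes whose levels followed the 3 most abundant members most closely over the 18 libraries were named by Pearson's r of log2(FPKM + 1), given as a description, since the libraries share the split by reserve label. For Hes1 they were Ankrd54 (r = 0.944), Por (0.939) and Kctd17 (0.938). Over the 12 libraries without the reserve label these were 0.902, 0.806 and 0.763. For Rbpj they were Dbt (0.969), Trove2 (0.968) and Timp3 (0.963), and for Jag2 Il4ra (0.982), Atoh8 (0.982) and Dok1 (0.981). Il4ra dropped to 0.569 with Jag2 over the 12 libraries.

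The rest of the pathway was covered by a list of 67 other genes, of which 56 were tested. In KO Reserve against WT Reserve 20 of them fell (35.7%) and 2 rose (3.57%), beside 29.3% and 12% of all tested genes. Their median difference was -0.24, against -0.17 for all genes. With quantile normalization 16 fell and 12 rose, and with median-ratio scaling 14 fell and 10 rose. By role, 3 of 5 glycosylation genes fell, 3 of 10 cleavage genes fell and 1 rose, 2 of 8 coactivators and 2 of 11 corepressors fell, and 3 of 13 regulators fell. The only tested ligand-like gene, Dlk1, fell, as did 2 of 2 genes of the Hes and Hey family, and of 6 target genes in blood cells 4 fell and 1 rose.

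Fringe proteins add sugars to the Notch extracellular domain and shift its preference between Delta-like and Jagged ligands. Mfng (Manic fringe) was at 33.5, 29.6 and 34.0 FPKM in WT Reserve and at 9.95, 12.8 and 8.58 in KO Reserve. Mfng fell by 1.56 between these groups (SE 0.14, limma adjusted p = 5.03e-07). Lfng (Lunatic fringe), whose promoter is printed above, was at 5.97, 10.6 and 5.58 FPKM in WT Reserve and at 1.77, 1.43 and 1.85 in KO Reserve. Lfng fell by 1.60 (SE 0.23, adjusted p = 3.94e-05). The 2 groups did not overlap for either gene. In KO Ctrl against WT neither passed, at 0.16 for Mfng (adjusted p = 0.601) and 0.54 for Lfng (0.221), and the genotype difference in reserve minus other cells was -1.72 for Mfng (SE 0.20, adjusted p = 1.52e-05) and -2.14 for Lfng (SE 0.32, adjusted p = 0.000134).

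Gamma-secretase is the protease that frees the intracellular domain, and nicastrin is one of its subunits. Ncstn, which encodes nicastrin, and Psen2, which encodes a catalytic subunit, were chosen after their values were seen. Ncstn was at 20.9, 15.6 and 24.4 FPKM in WT Reserve and at 12.7, 9.40 and 10.6 in KO Reserve, and fell by 0.83 (SE 0.15, limma adjusted p = 0.000287). Psen2 went the opposite way, from 29.5, 24.7 and 32.5 FPKM to 38.8, 51.8 and 49.0. Psen2 rose by 0.67 (SE 0.16, adjusted p = 0.00274). The reserve groups did not overlap for either gene, and both kept these calls in 13 of 13 alternatives, the scalings included.

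Neurl3, a member of the Neuralized family of ubiquitin ligases, was at 14.9, 10.1 and 8.74 FPKM in WT Reserve and at 3.22, 3.52 and 2.89 in KO Reserve. It fell by 1.51 between them (SE 0.18, limma adjusted p = 8.69e-06). Neurl3 was at 48.0 to 82.2 FPKM in the 12 other libraries, and fell by 2.29 in WT Reserve against WT (SE 0.18, adjusted p = 1.57e-08) and by 3.88 in KO Reserve against KO Ctrl (SE 0.18, adjusted p = 1.34e-11).

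**Figure D3:**
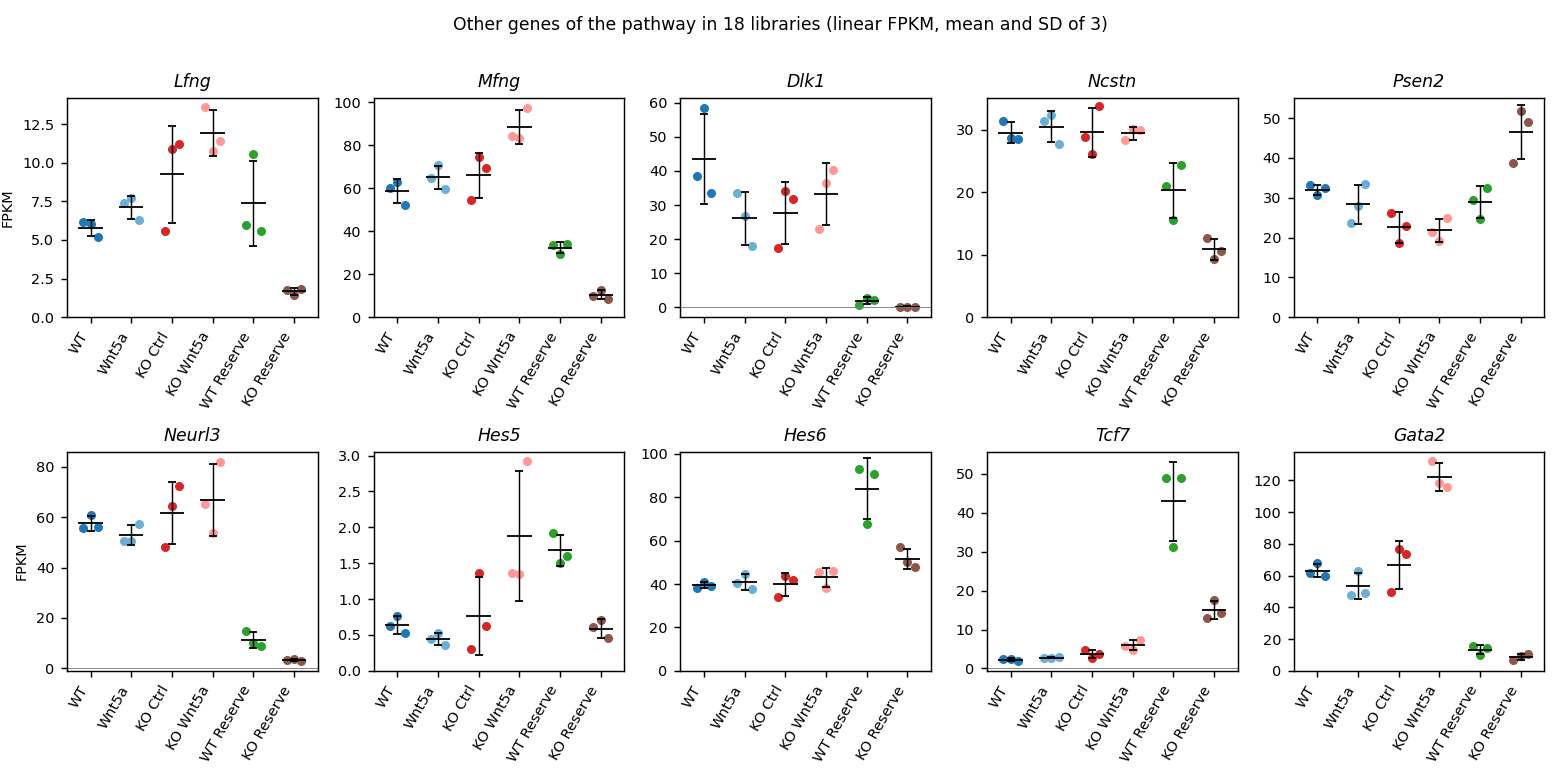
FPKM of 10 other Notch pathway genes in each of the 18 libraries (points) by group, with the mean and SD (bars, n = 3); each panel has its own linear axis from 0. Mfng and Neurl3 decline from the 12 libraries without the reserve label through WT Reserve to KO Reserve, whereas Tcf7 is highest in WT Reserve, at 31.1 to 48.9.

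Hes5 and Hes6, the tested relatives of Hes1, rose in WT Reserve against WT while Hes1 fell. Hes5 was at 0.620, 0.768 and 0.523 FPKM in WT, 1.93, 1.51 and 1.61 in WT Reserve, and 0.604, 0.708 and 0.455 in KO Reserve. It rose by 0.71 in WT Reserve against WT (SE 0.22, limma adjusted p = 0.00972), a call lost with quantile normalization (0.46, adjusted p = 0.0525). It fell by 0.75 in KO Reserve against WT Reserve (SE 0.22, adjusted p = 0.0103). Hes6, named after its values were seen and known as an inhibitor of HES1, rose by 1.06 in WT Reserve against WT (SE 0.13, adjusted p = 2.90e-06) and fell by 0.68 in KO Reserve against WT Reserve (SE 0.13, adjusted p = 0.000574). Both stayed called in KO Reserve against WT Reserve in 13 of 13 alternatives. Hes5 reached 1 FPKM in no library of WT, Wnt5a or KO Reserve and so entered through groups where it was high. Its p-values are therefore no independent support. The promoter window of Hes5 overlaps an exon of the unnamed model Gm20421, so reads near the start may belong to either.

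Of the 6 tested targets of Notch in blood cells 4 rose and 1 fell in WT Reserve against WT, beside 30.8% and 27.9% of all tested genes. In KO Reserve against WT Reserve 1 rose and 4 fell, beside 12% and 29.3% of all tested genes. Bcl11b, among these 6 and named after its values were seen, reached 1 FPKM only in WT Reserve 1, WT Reserve 3 and KO Reserve 3. It entered through the reserve libraries alone, so the counts that include it are no independent support. Tcf7, a T-lineage transcription factor induced by Notch in thymic progenitors, was at 2.46, 2.42 and 1.95 FPKM in WT, 48.9, 31.1 and 48.8 in WT Reserve, and 13.1, 17.5 and 14.2 in KO Reserve. It rose by 3.72 in WT Reserve against WT (SE 0.20, limma adjusted p = 9.06e-11). Between the reserve groups it fell by 1.45 (SE 0.20, adjusted p = 2.64e-05). The summed T and NK markers moved with it, at 63.7 to 66.5 FPKM in WT, 661 to 777 in WT Reserve and 241 to 269 in KO Reserve, and 4 of the 4 tested ones fell between the reserve groups. Cd3e, on that marker list, was at 0 in all 12 libraries without the reserve label and stayed low with it. Its mean was 0.145 FPKM for WT Reserve (range 0 to 0.373) and 0.0763 for KO Reserve (range 0.026 to 0.105). Of the 8 listed T and NK markers, 4 had a mean of at least 1 FPKM in each reserve group, against 3 in WT. The part of these markers in the Tcf7 values was not tested.

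With the reserve label, 28 of the 56 other genes fell (50%) and 15 rose (26.8%) in WT Reserve against WT, beside 27.9% and 30.8% of all genes. Their median was -0.32, against 0.06 for all genes. Of the cleavage genes 7 of 10 fell and 0 rose, and of the glycosylation genes 4 of 5 fell and 0 rose. Dlk1, which encodes a Delta-like protein without the receptor-activating domain, was at 33.6 to 58.5 FPKM in WT and 0.780 to 2.72 in WT Reserve. It fell by 3.98 (SE 0.32, limma adjusted p = 3.56e-08). Of the reserve libraries only WT Reserve 2 and WT Reserve 3 reached 1 FPKM, so Dlk1 entered through its high groups. Its p-value is no independent support. Ctbp2, a corepressor, fell by 2.23 (SE 0.15, adjusted p = 1.49e-09).

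In KO Reserve against KO Ctrl 32 of the 56 fell (57.1%) and 11 rose (19.6%), beside 40.4% and 24.8% of all tested genes. The median was -0.57, against -0.19 for all. Again 7 of 10 cleavage genes and 4 of 5 glycosylation genes fell, while Psen2 rose by 1.01 (SE 0.16, limma adjusted p = 2.43e-05). Mfng fell by 2.56 (SE 0.14, adjusted p = 9.28e-11), Gata2 by 2.80 (SE 0.19, adjusted p = 1.07e-09) and Ctbp2 by 2.45 (SE 0.15, adjusted p = 2.87e-10). WT Reserve against WT and KO Reserve against KO Ctrl share no libraries, but each shares its reserve group with the comparison of the reserve groups.

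**Figure D4:**
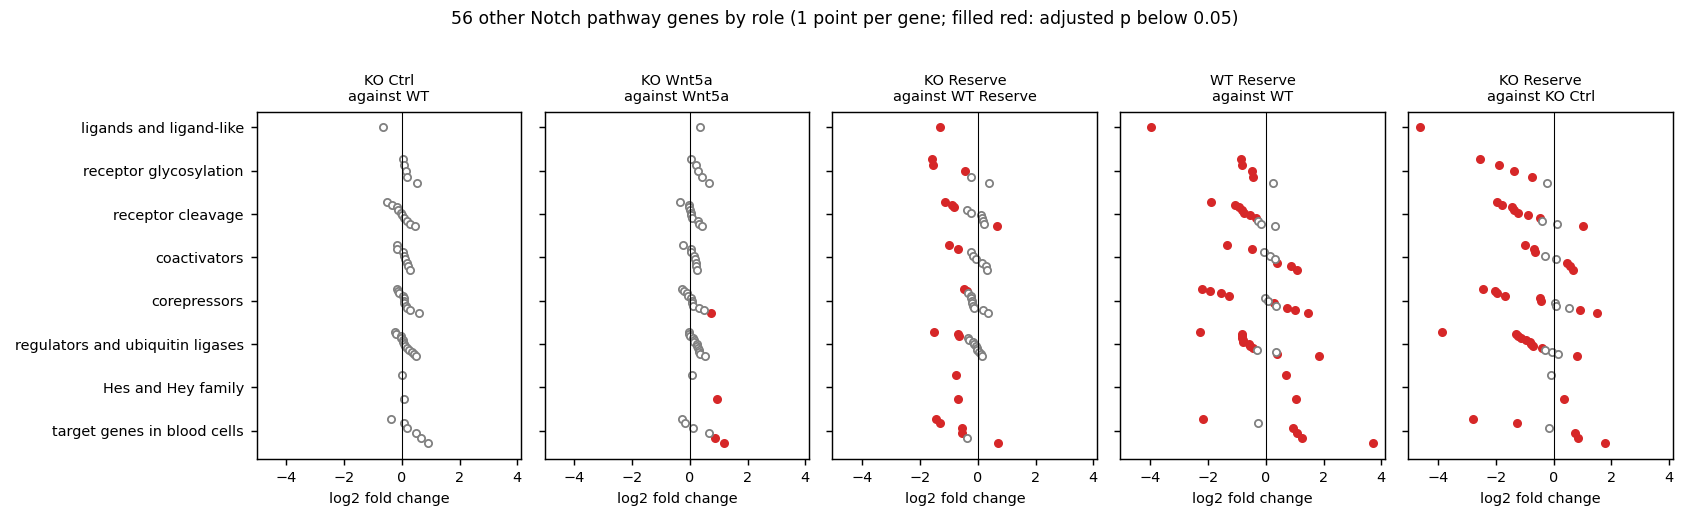
Differences on the log2(FPKM + 1) scale (points) of the 56 tested other Notch pathway genes by role in 5 comparisons of groups; filled points passed the limma test at an adjusted p below 0.05. In KO Reserve against WT Reserve 20 filled points lie below 0 and 2 above, and in KO Wnt5a against Wnt5a 4 lie above and 0 below.

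Among the libraries without the reserve label few of these genes passed. In KO Wnt5a against Wnt5a 4 of 56 rose (7.14%) and 0 fell, beside 1.41% and 1.82% of all genes, and their median was 0.13 against 0.05. Gata2, a transcription factor that stem cells need and a Notch target in the embryo, was at 48.0, 62.6 and 49.1 FPKM in Wnt5a and at 131.9, 118.0 and 116.0 in KO Wnt5a. Gata2 rose by 1.19 (SE 0.19, limma adjusted p = 0.00194). Tcf7 rose by 0.88 (adjusted p = 0.0209) and Hes5 by 0.95 (0.0226). Neither passed without KO Wnt5a 3, at 0.74 for Tcf7 (0.115) and 0.71 for Hes5 (0.122), without Wnt5a 1 (0.0757 and 0.0740), without Wnt5a 3 (0.0776 and 0.111) or without the filter (0.0625 and 0.0585). Tcf7 was also lost without KO Wnt5a 1 (0.0548), and Hes5 with only the 6 libraries compared (0.0765). Hes5 reached 1 FPKM in no Wnt5a library, so its p-value is no independent support here either. Marker sums that differ between these 2 groups are given above with Hes1, and their part in these genes was not tested.

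In KO Wnt5a against KO Ctrl Gata2 was the only one of the 56 called. KO Ctrl gave 49.5, 76.9 and 73.7 FPKM, below all KO Wnt5a values. It rose by 0.88 (SE 0.19, limma adjusted p = 0.0294). That call was lost without KO Ctrl 1 (0.69, adjusted p = 0.162), without each of the 3 KO Wnt5a libraries in turn (adjusted p = 0.0884 to 0.122), and with only the 6 libraries compared (0.0922). For KO Ctrl against WT and Wnt5a against WT 0 of the 56 were called by limma. At an unadjusted p below 0.05 there were 8 and 5 (14.3% and 8.93%), beside 17.6% and 7.88% of all tested genes. Without KO Ctrl 1 the count called in KO Ctrl against WT went from 0 to 3. The median was 0.07 and 0.01 in these comparisons, against 0.04 and 0.02 for all genes.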

How the data were processed

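RNA-seq values of 18 libraries were analysed, 3 in each of 6 groups taken from the sample titles. Per the labels' protocols, cells were sorted into lysis buffer and the SMARTer v3 ultra low input reagents with Nextera were used, which mark no strand. Cufflinks, TopHat2 2.0.10, CASAVA 1.8.2 and the mm10 build are named in the submitters' processing notes. The authors deposited 1 table of FPKM per Ensembl gene and library, a unit its header does not name and that was inferred from Cufflinks and the values. The annotation used is not given in the sources used here. No counts were used, and depth was inferred by taking the lowest frequent value of 5775 genes with a single transcript as 1 fragment. Such limits cover counting error only.

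Symbols and positions came from GENCODE M21 (GRCm38), which matched 43938 identifiers and missed 411. The 16 genes with missing values (33 cells) were left out. Values were fitted as log2(FPKM + 1) with limma 3.58.1 (R 4.3.3), with 1 mean per group, an intensity trend and robust moderation, on the 14285 genes that reached 1 FPKM in 3 or more libraries. The threshold was an adjusted p (Benjamini-Hochberg) below 0.05 within each of 9 comparisons, of which 2 were interactions. The model was tested on simulated data. Members below the filter were tested in a fit without it.

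The members and lists were chosen with earlier results of these data known. Genes were named by a rule: all 10 members, per comparison of groups up to 4 other pathway genes with the smallest p among those called, and for the 3 most abundant members the 3 genes of highest correlation. Other genes are named as chosen after their values were seen. Markers were used as sums and counts. Some results for other pathway genes that the rule names are not reported here.

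Alternatives were a pseudocount of 0.1, no filter, quantile normalization, median-ratio scaling, limma without trend and robust moderation, only the libraries compared, a replicate block, and leaving out each library. A fit of only the 12 libraries without the reserve label was added after the data were seen. Plots were made in Python 3.11.15 with matplotlib 3.10.9. Promoters were searched in the RefSeq table of GRCm38.p6 with the printed motifs on both strands.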

Additional observations from a re-analysis of the deposited data

Results flagged for a closer look

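In the main fit the genotype difference of Hes1 was not the same in reserve cells as in the others, by a test of the difference itself. The interaction was -0.77 on the log2 scale (limma adjusted p = 0.00245), from KO Reserve below WT Reserve in 3 of 3 libraries and KO Ctrl overlapping WT. The call was lost with quantile normalization (-0.42, limma adjusted p = 0.0566). Of all tested genes 30.9% were called by this interaction, 22.9% of them all lower. The reserve label cannot be told apart from whatever else differed between the sets of libraries.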

How the results depend on the processing

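Hes1 in KO Reserve against WT Reserve, and Jag2, Rbpj and Dtx4 in WT Reserve against WT and in KO Reserve against KO Ctrl, kept their direction and call in 13 of 13 alternatives. For Jag2 this is no independent support, since it reached 1 FPKM only in libraries without the reserve label. The same holds for Dtx4, for which WT Reserve 2 was the only reserve library to reach 1 FPKM. The number of members called in KO Reserve against WT Reserve went from 1 to 2 with a pseudocount of 0.1, which added Jag2, and to 2 with quantile normalization and with median-ratio scaling, which each added Notch2. Since Notch2 passed the filter through reserve libraries, these Notch2 calls are no independent support. For the genotype difference the number of members called went from 1 to 2 with a pseudocount of 0.1 (Jag2 at -1.59, adjusted p = 0.00862) and to 0 with quantile normalization. Leaving out 1 library gave 0 to 1 members called in KO Wnt5a against KO Ctrl, 0 to 2 in KO Wnt5a against Wnt5a, 4 to 5 in WT Reserve against WT and 4 to 6 in KO Reserve against KO Ctrl. Where the cause is not given above it was not tested. Among 804 recomputed member values 42 changed sign, none of them called in either fit, and 6 of these moved by more than 1 SE. The number of other pathway genes called in KO Reserve against WT Reserve ranged from 16 to 30, and for the genotype difference, with 2 higher and 17 lower, from 14 to 25. That split was 7 and 10 with quantile normalization and 7 and 9 with median-ratio scaling.

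Over all genes, scaling moved the split of calls in these comparisons beside those given above. The higher and lower calls were 3544 and 5778 in KO Reserve against KO Ctrl (4893 and 4494 with median-ratio scaling, 4512 and 4677 with quantile normalization), and 1147 and 3268 for the genotype difference (2375 and 1952, 2155 and 1969). They were 218 and 160 in KO Ctrl against WT (190 and 316 with median-ratio scaling) and 201 and 260 in KO Wnt5a against Wnt5a (115 and 321). The total ranged from 132 to 769 around 378 in KO Ctrl against WT, from 65 to 156 around 146 in KO Wnt5a against KO Ctrl, from 146 to 729 around 461 in KO Wnt5a against Wnt5a, from 3 to 16 around 7 in Wnt5a against WT, from 7 to 22 around 10 for the Wnt5a difference between genotypes, and from 3720 to 6062 around 5899 in KO Reserve against WT Reserve.

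Deviations from the group means of same-numbered libraries correlated at -0.092 to 0.1, so no shared deviation by replicate number was seen. Whether equal numbers mark a shared animal is not in the labels, and these correlations cannot tell. With a replicate block Notch2 lost its call in KO Reserve against KO Ctrl (0.38, adjusted p = 0.0561), and no other member call changed. Depth limits Notch3, Jag1, Dtx1 and the reserve values of Jag2, which reach the level of 3 fragments.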
